A study of Mus musculus with 2 samples.

Results

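The HOX cluster microRNA genes Mir10a, Mir10b, Mir196a-1, Mir196a-2, Mir196b and Mir615 were followed in the embryonic mouse heart. They were chosen by symbol: the Ensembl identifiers in the count tables were matched to GENCODE, and all 6 were found among the 1973 counted miRNA genes. Among the 1894 counted miRNA genes with a matched position, they are also the only ones between the outermost Hox genes of the 4 HOX clusters. MicroRNA sequencing (RNA under 30 nt) gave 2 libraries of 1 group, hearts of embryos at day 11.5 of the strain B6NCrl, with male and female embryos pooled. The labels name no transgene, mutation or treatment and call the embryos healthy. Replicate 1 pooled the hearts of 109 embryos, and no number is given for replicate 2; the labels name a separate tissue sample for each replicate but do not mention litters.

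Hox genes encode homeodomain transcription factors that set identity along the head-to-tail axis, and their order within a cluster follows the order of the body regions in which they are active. The clusters also hold miRNA genes, whose short RNAs base-pair with messenger RNAs and repress them, largely through the bases of the seed near the 5′ end. The miR-10 genes lie upstream of the fourth Hox group and the miR-196 genes lie between the ninth and the more posterior groups, and Hox messenger RNAs are among the best known targets of both; miR-196 directs cleavage of the Hoxb8 transcript. In the developing heart, Hox genes of anterior groups are active in part of the second heart field and in cardiac neural crest, and miR-10 is known in endothelial cells as a regulator of vessel growth and inflammatory signalling.

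Mature sequences of all 6 genes were in the RefSeq table for GRCm38.p6. They are shown because the seed sets the families and because the positions at which members differ decide which reads can be told apart. Capitals mark the seed, bases 2 to 8 counted from the 5′ end.

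miR-10a-5p (Mir10a): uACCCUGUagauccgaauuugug

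miR-10b-5p (Mir10b): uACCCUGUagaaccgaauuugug

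miR-196a-5p (Mir196a-1 and Mir196a-2): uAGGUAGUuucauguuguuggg

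miR-196b-5p (Mir196b): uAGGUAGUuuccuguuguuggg

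miR-196a-1-3p (Mir196a-1): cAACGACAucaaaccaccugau

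miR-196a-2-3p (Mir196a-2): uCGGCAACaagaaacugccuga

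miR-615-5p (Mir615): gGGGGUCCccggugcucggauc

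miR-615-3p (Mir615): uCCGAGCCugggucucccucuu

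The 5p arms formed 2 families of shared seed. The seed ACCCUGU was held by 2 mature sequences of the table, those of Mir10a and Mir10b, and the seed AGGUAGU by 2, miR-196a-5p and miR-196b-5p. Neither arm of Mir615 shared its seed with another mature sequence in the table, which holds 1674 distinct ones. Within each family the 5p arms differed by 1 base, at position 12 in both: U12A from miR-10a-5p to miR-10b-5p, and A12C from miR-196a-5p to miR-196b-5p. Each of these 4 arms therefore lay 1 mismatch from the hairpin of its relative. The 3p arms were further apart, with 3 mismatches between miR-10a-3p and the nearest other hairpin.

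miR-196a-5p is the exception among the 5p arms of the 6 genes, since the same sequence is carried by both Mir196a-1 and Mir196a-2. Judged by the layout of the count tables, reads that map to several places were put in a separate multimapping row and on no gene. Counts on Mir196a-1 and Mir196a-2 are thus uncertain and do not measure miR-196a-5p. Their 3p arms differ from each other, and each is found at 1 gene of the table. Counts are per gene and do not separate the 5p from the 3p arm. Whether reads with a mismatch were accepted by the authors' alignment is not known here, so any exchange of reads between Mir10a and Mir10b, or between Mir196b and the Mir196a genes, was not tested.

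Positions are on GRCm38 (mm10), from GENCODE M21. Mir10a (ENSMUSG00000065519.1) lies in the HoxB cluster on chromosome 11 from 96317165 to 96317274, 11.04 kb downstream of the 3′ end of Hoxb5 and 4.36 kb upstream of that of Hoxb4, and overlaps no annotated transcript of another gene. Mir10b (ENSMUSG00000065500.2) lies in the HoxD cluster on chromosome 2 from 74726070 to 74726137, within introns of Hoxd4 and Hoxd3 transcripts and 3.02 kb upstream of the 3′ end of Hoxd4. The miR-10 genes thus sit at matching places, each with its group 4 Hox gene as the next one downstream.

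Mir196b (ENSMUSG00000065443.1) lies in the HoxA cluster on chromosome 6 from 52230081 to 52230165 on the minus strand, 1.03 kb past the 3′ end of Hoxa10. It overlaps exons of 2 non-coding Hoxa9 transcripts and an intron of another. Mir196a-1 (ENSMUSG00000065546.1) lies in the HoxB cluster on chromosome 11 from 96265164 to 96265265, between Hoxb13 and Hoxb9, 51.9 kb from Mir10a and outside other annotated transcripts. Mir196a-2 (ENSMUSG00000065488.1) lies in the HoxC cluster on chromosome 15 from 102973350 to 102973434, 1.46 kb past the 3′ end of Hoxc10, within an intron of a long Hoxc5 transcript. All 3 Mir196 genes have a group 9 Hox gene as the next one downstream. Mir615 (ENSMUSG00000076010.1) lies on the same chromosome from 103014910 to 103015001, 41.5 kb from Mir196a-2, in introns of 2 Hoxc5 transcripts.

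**Figure D1:**
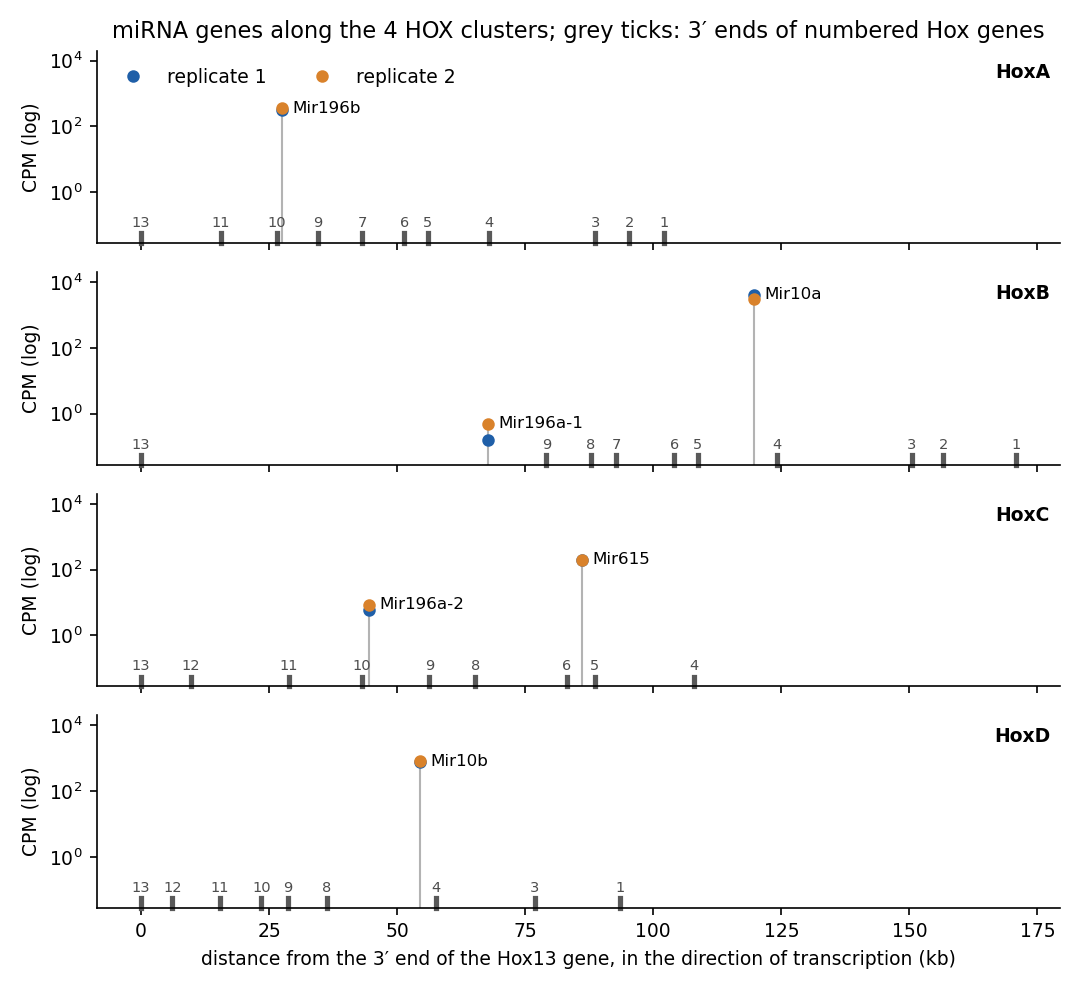
Levels of the 6 miRNA genes along the HoxA, HoxB, HoxC and HoxD clusters. The x axis gives the distance in kb from the 3′ end of the group 13 Hox gene in the direction of transcription; grey ticks mark the 3′ ends of the numbered Hox genes; points are CPM in replicates 1 and 2 on a log axis. Mir10a in HoxB stands highest in both libraries, at 4226 and 3123 CPM, and Mir196a-1 in the same cluster, counted without its miR-196a-5p, lowest, at 0.162 and 0.496 CPM.

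Levels are given as counts per 1000000 own-strand miRNA-gene counts of the library (CPM), for each gene; mature members are 22 or 23 nt long, so length differs little between them. The pool held 18467499 counts for replicate 1 but 2017294 for replicate 2, which makes replicate 1 deeper by 9.15 times, and multimapping reads, left out of it, were 33.8% and 33.2% of mapped reads. The heart muscle markers Mir208b, Mir208a and Mir499, which lie in myosin heavy chain genes, were present in both libraries at a summed 58391 and 63138 CPM. Reads carried no molecular identifiers, so the exact 95% Clopper-Pearson intervals and the limits from counts of 0 cover counting error only. In whole heart, fewer cells of a type and less RNA per cell cannot be told apart.

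The 6 genes together took 0.551% of the counts in replicate 1 (interval 0.548 to 0.555%) and 0.448% in replicate 2 (0.439 to 0.458%), a mean of 0.49995% ± 0.0729 (SD, n = 2). Taken of all mapped reads, multimapping and no-gene reads included, the mean share was 0.271%. Most of this was 1 gene: Mir10a held 76.6% of the summed counts of the 6 in replicate 1 and 69.6% in replicate 2. At 1 CPM or more in both libraries, the limit of detection used here, stood 5 of the 6 genes, among 419 of all 1973. Of reads assigned to a single gene, which leave out miR-196a-5p from HoxB and HoxC, the cluster sums ran from HoxB at 3675 ± 780 CPM through HoxD at 790 ± 13.03 and HoxA at 333 ± 30.6 to HoxC at 201 ± 7.64 CPM (SD, n = 2).

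Mir10a, the HoxB member of the miR-10 pair, was counted 78051 times in the first library and 6300 times in the other, which is 4226 CPM (4197 to 4256) and 3123 CPM (3046 to 3201). It ranked 40th and 52nd of the counted genes. Replicate 2 lay below replicate 1, with intervals that do not overlap. Mir10b, the HoxD member, had 14426 and 1613 counts, or 781 CPM (768 to 794) and 800 CPM (761 to 840). It ranked 96th in each library, and its intervals overlap. Reads on the strand opposite to either gene numbered 0.

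Mir10a exceeded Mir10b in both libraries, 5.41-fold in replicate 1 (5.32 to 5.51) and 3.91-fold in replicate 2 (3.70 to 4.13). The mean log2 ratio was 2.20 ± 0.33 (SD, n = 2). The direction is larger than the spread, in that both intervals exclude equality and the mean exceeds the SD. The size of the ratio was not alike in the libraries, since their intervals do not overlap.

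Mir196b, the HoxA member of the miR-196 family, was counted 5747 and 715 times in replicates 1 and 2, or 311 CPM (303 to 319) and 354 CPM (329 to 381). It had the third highest count of the 6 genes, and its intervals in the libraries do not overlap either, here with replicate 2 higher. Mir196a-2 had 108 and 17 counts, or 5.85 CPM (4.80 to 7.06) and 8.43 CPM (4.91 to 13.5), with overlapping intervals. Mir196a-1 was counted 3 times and 1 time, 0.162 and 0.496 CPM. Both values are at or under what a count of 0 allows at 3 counts per library, 0.162 and 1.49 CPM. The level of Mir196a-1 was thus not resolved by the reads assigned to it, which leave out miR-196a-5p.

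Mir196b exceeded the summed Mir196a genes 51.8-fold in replicate 1 (42.9 to 63.0) and 39.7-fold in replicate 2 (25.0 to 67.4), a log2 ratio of 5.50 ± 0.27 (SD, n = 2). This ratio compares reads assigned to single loci and is larger than the spread, but it carries the uncertainty of the shared miR-196a-5p sequence. Mir196a-2 stood above Mir196a-1 36.0-fold in replicate 1 (11.99 to 177) and 17.0-fold in replicate 2 (2.66 to 710), on 3 and 1 counts of the latter.

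Mir615, the intronic Hoxc5 gene with no seed relative, was counted 3510 and 400 times in replicates 1 and 2, or 190 CPM (184 to 196.5) and 198 CPM (179 to 219). The libraries overlapped, and it ranked 162nd and 158th of the counted genes. In reads assigned to a single gene it stood 32.5-fold above Mir196a-2, the other HoxC member, in replicate 1 (26.8 to 39.7) and 23.5-fold in replicate 2 (14.5 to 40.8). Those reads leave out the miR-196a-5p of Mir196a-2, so which of the pair is more abundant cannot be read from them.

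**Figure D2:**
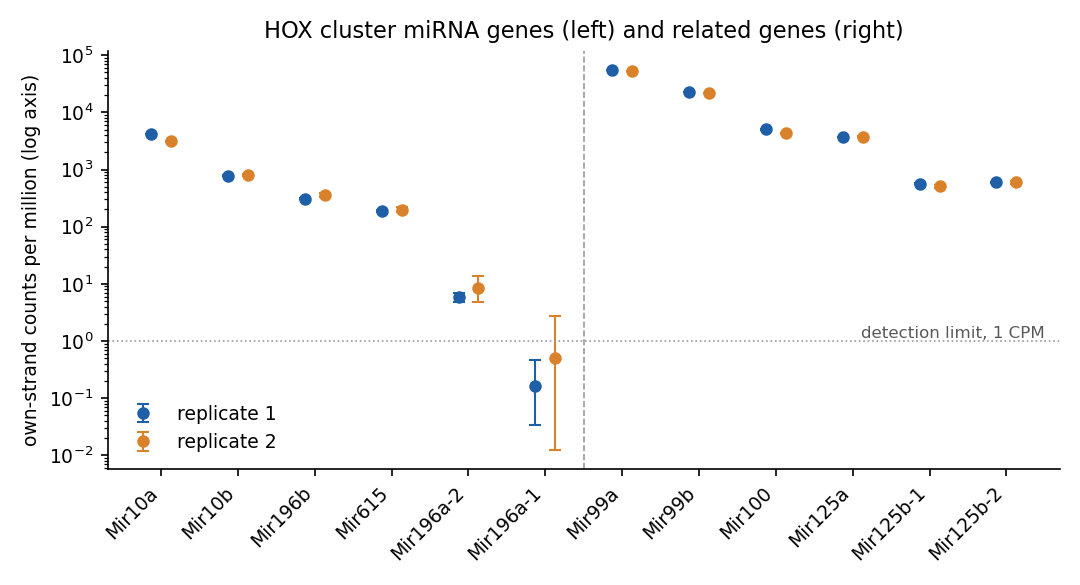
CPM of the 6 HOX cluster genes (left of the dashed line) and of 6 related genes (right) on a log axis, 1 point per library with its exact 95% interval, and the detection limit of 1 CPM as a dotted line. The members run from Mir10a at 4226 and 3123 CPM down to Mir196a-1, whose intervals are the widest. Mir99a, Mir99b and Mir100 stand above every HOX cluster gene in both libraries.

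Among the members whose 5p arm lies at 1 gene, the order of levels was the same in the libraries: Mir10a, Mir10b, Mir196b, Mir615. Each ratio of neighbours among these was larger than the spread. Mir196a-2 and Mir196a-1 had fewer counts than the others, but their place in the order is not resolved, since their miR-196a-5p reads are not on them and Mir196a-1 was counted 3 times and 1 time. The closest neighbours were Mir196b and Mir615, with Mir196b 1.64-fold higher in replicate 1 (1.57 to 1.71) and 1.79-fold in replicate 2 (1.58 to 2.03). Mir10b exceeded Mir196b 2.51-fold (2.43 to 2.59) and 2.26-fold (2.06 to 2.47). As families, Mir10a plus Mir10b exceeded the 3 Mir196 genes 15.8-fold (15.4 to 16.2) in replicate 1 and 10.8-fold (10.01 to 11.7) in replicate 2, a log2 ratio of 3.71 ± 0.39 (SD, n = 2). The uncounted miR-196a-5p reads are missing from the lower side of that ratio. How readily each RNA enters a library can differ between miRNAs, so these are ratios of counts and not of molecules.

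**Figure D3:**
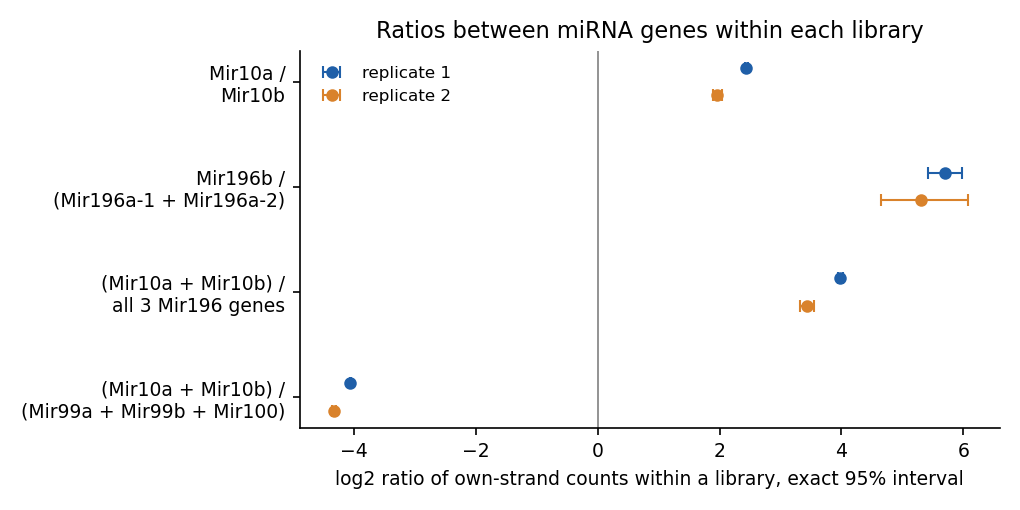
Log2 ratios of own-strand counts between miRNA genes within each library, with exact 95% intervals; 0 is equality. The first 3 ratios lie above 0 and the last below 0 in both libraries. The intervals of replicates 1 and 2 overlap only for Mir196b over the Mir196a genes.

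Outside the HOX clusters, miR-10 has close relatives in the miR-99/100 genes, which in turn lie beside miR-125 or let-7 genes. Their 5p arms have a seed of their own, ACCCGUA, shared by all 3. They are shown for comparison with the miR-10 arms above.

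miR-100-5p (Mir100): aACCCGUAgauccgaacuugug

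miR-99a-5p (Mir99a): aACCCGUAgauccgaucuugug

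miR-99b-5p (Mir99b): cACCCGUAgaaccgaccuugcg

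The distance from miR-10a-5p to miR-100-5p was 3 edits, with a shared run of 11 bases. The related genes were mostly far above the miR-10 pair: Mir99a stood at 55497 and 52645 CPM, Mir99b at 22751 and 21887 CPM and Mir100 at 5017 and 4345 CPM in replicates 1 and 2. Mir10a plus Mir10b were 16.6-fold below these 3 genes summed in replicate 1 and 20.1-fold in replicate 2, a log2 ratio of -4.19 ± 0.19 (SD, n = 2), larger than the spread. Against Mir100 alone, the miR-10 pair did not differ beyond the spread: the ratio was 0.998 (0.989 to 1.01) in replicate 1 and 0.903 (0.876 to 0.931) in replicate 2. Of the miR-125 genes, Mir125a stood at 3726 and 3778 CPM, near Mir10a. Mir125b-1, at 562 and 509 CPM, and Mir125b-2, at 597 and 594 CPM, share the mature miR-125b-5p and are uncertain for the reason given for Mir196a.

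The libraries were then compared gene by gene, with the total of each library as the expectation, by an exact binomial test whose p-values were adjusted (Benjamini-Hochberg) over the 419 detected genes. With 1 library on each side this compares the libraries, not conditions. Of the 5 detected HOX cluster genes 1 was lower in replicate 2, Mir10a, where 15.0% of all 419 genes were. Another was higher, Mir196b, where 13.8% of all genes were, and 3 did not pass. Counts of 1 among 5 are near these shares, so they do not set the 6 genes apart. The median log2 ratio of the 5 was 0.06, against -0.01 over all 419.

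Mir10a had a ratio of 0.739 (0.720 to 0.758), or -0.44 on the log2 scale (exact binomial, adjusted p = 1.27e-126). At its level such a difference was uncommon: of the 86 genes with a mean of 1000 CPM or more, 0 others had a larger absolute log2 ratio, and their median absolute fold was 1.05. Among the 199 genes at 100 CPM or more, 16 had a larger one. edgeR's exact test, used next, took its spread from these same 2 libraries treated as 1 group, so the differences under test entered it. It therefore cannot decide which of them go beyond the spread between replicates. The call is lost once the spread estimated over genes is allowed for: edgeR's exact test, with 1 dispersion for all genes (biological coefficient of variation 17.7%), gave an adjusted p of 1 and called 5 of the 419 genes, all lower in replicate 2. Under the other alternatives the adjusted p of the exact binomial test for Mir10a ran from 3.36e-135 to 1.47e-125. None of the members' ratios past the binomial test reached 2-fold.

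Mir196b had a ratio of 1.14 (1.05 to 1.23; exact binomial, adjusted p = 0.00667), and its adjusted p was also 1 by edgeR's exact test, against 0.00516 to 0.013 under the other alternatives. Mir10b, with the same seed as Mir10a, had a ratio of 1.02 (0.972 to 1.08), Mir615 1.04 (0.938 to 1.16) and Mir196a-2 1.44 (0.810 to 2.42), none of them past the test. The 5 genes without Mir10a summed to 1288 CPM in replicate 1 and 1361 CPM in replicate 2, so the lower total of the 6 in replicate 2 came from Mir10a. Mir100 was lower in replicate 2 as well, with a ratio of 0.866 (0.847 to 0.885), while Mir125a, at a level like that of Mir10a, had a ratio of 1.01 (0.9902 to 1.04). Of the 6 related genes 4 were lower by the exact binomial test, where 15.0% of all 419 genes were, 0 were higher and 2 did not pass. By edgeR's exact test 0 of the 6 were called.

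**Figure D4:**
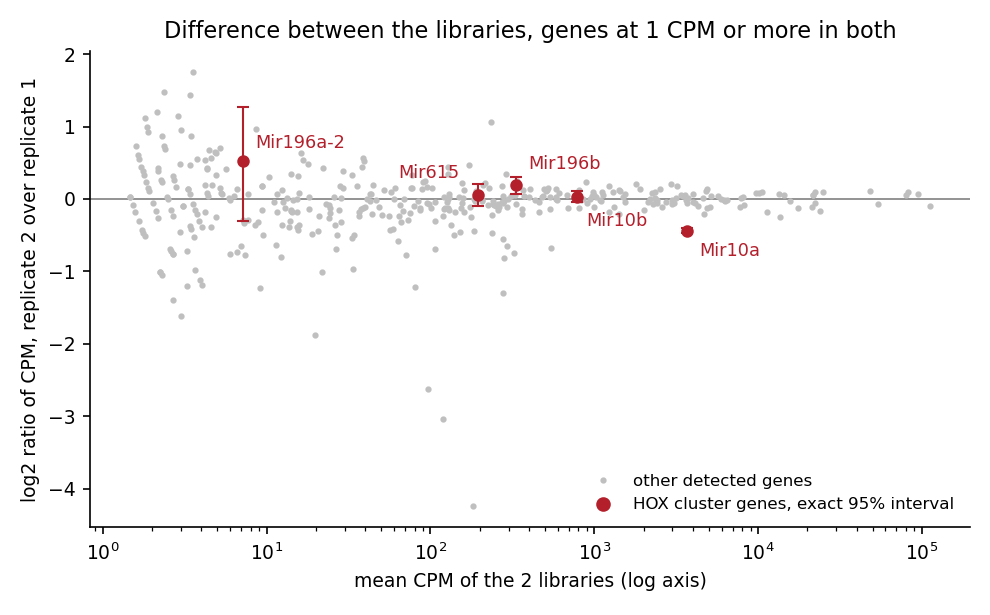
Log2 ratio of CPM, replicate 2 over replicate 1, against the mean CPM of the libraries for the 419 detected genes; the 5 detected HOX cluster genes are in red with exact 95% intervals, and Mir196a-1, below detection, is not drawn. Mir10a lies at -0.44, apart from the genes of similar level, and Mir10b and Mir615 lie near 0.

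Markers of other cell types also differed between the libraries by the exact binomial test, which called 15.0% of all 419 genes lower and 13.8% higher in replicate 2. All 7 epithelial markers, most of them miR-200 genes, were detected and were lower in replicate 2, summing to 2144 and 1488 CPM, with Mir429 the most abundant at 668 and 418 CPM. Of the 8 liver and endoderm markers 7 were detected, of which 3 were lower and 4 did not pass. The median log2 ratio of these 7 was -0.10. The list summed to 924 and 599 CPM, led by Mir122 at 395 and 160 CPM. Of 7 counted neural markers 2 were detected, both lower; the sums were 63.3 and 34.7 CPM, and Mir124a-1, Mir124a-3 and Mir9-2 were at 0 in both libraries, though such multi-locus genes are uncertain. Of the 5 counted blood markers 2 were lower and 3 did not pass, at 1352 and 1273 CPM summed.

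The markers of the heart wall and its vessels went the other way. The 3 heart muscle markers, the 2 smooth muscle markers (93726 and 98626 CPM summed) and the endothelial Mir126a (79505 and 84700 CPM) were all higher in replicate 2 by the binomial test. By edgeR's exact test, an alternative applied to these lists after seeing the data, 0 of the heart muscle, smooth muscle, endothelial, epithelial, neural and blood markers were called in either direction, and 1 of the 7 liver and endoderm markers, Mir122, was lower (adjusted p = 0.0457). No heart muscle, smooth muscle, endothelial, epithelial or counted blood marker was at 0 in either library. The part of other cell types in the lower Mir10a count of replicate 2 was not tested.

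The genes nearest to each member in level were found by distance on log2(CPM + 1) over the 2 libraries, which describes likeness in level only. Nearest to Mir10a were Mir369 (3743 and 3603 CPM) and Mir302d (3628 and 3601 CPM), at distances of 0.27 and 0.30. Their log2 ratios between the libraries were -0.05 and -0.01, against -0.44 for Mir10a. Nearest to Mir10b were Mir450b and Mir451a, at 0.08 and 0.11. Mir196b was nearest to Mir27a (308 and 367 CPM, distance 0.05) and Mir199b, and Mir615 to Mir224 and Mir32, at distances of 0.015 and 0.022. Mir196a-2 was nearest to Mir3075 and Mir547, at 0.26 and 0.33.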

How the data were processed

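For each of the 2 libraries the authors deposited a table of unnormalized counts by miRNA gene, made on mm10 (per the labels) with GENCODE M4 (per the deposited text notes). The aligner and the counter are not known here. Each table has 3 unnamed count columns, taken from their sums as both strands, own strand and opposite strand, and 4 summary rows. Own-strand counts were used. The summary rows stayed out of library sizes; of all reads, unmapped, multimapping and no-gene reads made up 38.4%, 20.8% and 8.77% in replicate 1 and 27.5%, 24.1% and 7.04% in replicate 2.

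Gene identifiers were matched without version to GENCODE M21 (1894 of 1973 matched; 2 of the 6 members have another version there). Ratios within a library have exact binomial intervals. For 2 libraries the smallest two-sided sign-flip p is 0.5, so no p over replicates is given. edgeR 4.0.16 and DESeq2 1.42.0 gave alternative scalings and edgeR's exact test. SciPy 1.17.1 gave the binomial tests. A simulation of these tests drew counts with counting error only, so it does not show how they behave under spread between replicates. The binomial p-values ask whether libraries that the labels call biological replicates differ beyond counting error. They do not take in the spread between replicates. Named genes were the 6 members, 6 related genes, heart markers, the top gene of each marker list and the 2 genes nearest to each detected member. The 3 neural markers at 0 were named after their values were seen. The members and lists were chosen with earlier results of these data known.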

Additional observations from a re-analysis of the deposited data

How the results depend on the processing

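The 4 ratios between genes kept their direction under all 18 alternatives (reads of both strands, each replicate left out, 0.5 counts added, Mir196a-2 alone, Mir196b alone). Leaving out a replicate gives the ratio of the other library again, and opposite-strand reads were few or absent on these genes. Adding 0.5 counts is small beside the counts compared, and Mir196a-2 alone or Mir196b alone only takes counts from the lower side. None of these settings could turn a direction, so the 18 alternatives do not test it. The share of the 6 genes was 0.271% when taken of all mapped reads instead of gene counts, and 0.477% with reads of both strands. Between the libraries, the count of members lower and the count higher were each 1 under reads of both strands, TMM and DESeq2 scaling and other detection limits. Each fell to 0 with edgeR's exact test and to 0 with a fold of at least 2, where 8 of all 419 genes were lower and 2 higher. edgeR's exact test called 5 of all genes lower and 0 higher. TMM and DESeq2 scaling shifted the median log2 ratio of all genes by -0.01 each, and Mir10a stood at -0.45 under both. Without a filter, 783 genes were tested. No paired analysis was possible because there is 1 group. Mir196a-1 and Mir196a-2 are limited by few counts, at most 17 each in replicate 2, and by the miR-196a-5p reads left out of them.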
